A study of Mus musculus with 8 samples.

Results

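The genes described here are 10 negative feedback regulators of MAP kinase signalling: 6 dual-specificity MAP kinase phosphatases (*Dusp1*, *Dusp2*, *Dusp4*, *Dusp5*, *Dusp6* and *Dusp10*), 2 Sprouty genes (*Spry1* and *Spry2*) and 2 Sprouty-related genes (*Spred1* and *Spred2*). They were picked by name, and are 10 of the 52636 rows of an RNA-seq table. The table holds 8 libraries, 2 for each of 4 groups, from conventional T cells (Tconvs, sorted as CD4+ Foxp3-) and regulatory T cells (Tregs, sorted as CD4+ Foxp3+) of the spleen. Control cells came from CD27+/- mice, and CD70Tg cells from CD11c-Cd70tg;CD27+/- mice, in which the CD11c promoter drives CD70 on dendritic cells. Both genotypes carry a Foxp3 reporter and only 1 intact copy of *Cd27*, the receptor of CD70, and the methods give an age of 6 to 8 weeks. CD25+ cells were depleted before Tconvs, but not Tregs, were sorted. The question was how lasting CD27 engagement, with no antigen given on purpose, acts on each subset.

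Signals from the T cell receptor and costimulatory receptors run through Ras and the kinases ERK, JNK and p38, which are switched on by double phosphorylation. Dual-specificity MAP kinase phosphatases remove both phosphates, and several of them are themselves transcribed in response to the kinase they switch off, so that they form a negative feedback loop. *Dusp1*, *Dusp2*, *Dusp4* and *Dusp5* encode inducible nuclear enzymes, *Dusp6* a cytoplasmic enzyme specific for ERK, and *Dusp10* an enzyme that acts mainly on p38 and JNK. Sprouty and Spred proteins act further upstream, where they restrain the activation of Ras and Raf, Spred1 by bringing the Ras GTPase-activating protein neurofibromin to the membrane.

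The windows of 250 bases before the start of *Dusp1*, *Dusp2* and *Dusp5* are shown because they hold a match to an element through which such inducible genes are known to be switched on. RefSeq (GRCm38.p6) gave a window for 9 of the 10 genes, *Dusp4* being without one. Its starts can differ from those of the GENCODE positions given further on: the *Dusp1* window lies within the longer GENCODE gene, and that of *Dusp5* ends past the GENCODE start. The letters of 5 motifs were searched on both strands: the cyclic AMP response element (CRE, TGACGTCA), AP-1 (TGANTCA), ETS (CCGGAA), the E-box CACGTG and the CArG box, which serum response factor binds. The window of *Dusp1*, at chr17:26508473-26508722 on the minus strand, holds a CRE (in capitals) that starts at -143, counted from -1 for the last base before the start, and an E-box at -126. That of *Dusp2*, at chr2:127335909-127336158 on the plus strand, holds an E-box (in capitals) at -109. That of *Dusp5*, at chr19:53528895-53529144 on the plus strand, holds 2 CArG boxes side by side (in capitals), CCATATTTGG at -82 and CCTTATATGG at -72. None of these matches overlap.
Dusp1: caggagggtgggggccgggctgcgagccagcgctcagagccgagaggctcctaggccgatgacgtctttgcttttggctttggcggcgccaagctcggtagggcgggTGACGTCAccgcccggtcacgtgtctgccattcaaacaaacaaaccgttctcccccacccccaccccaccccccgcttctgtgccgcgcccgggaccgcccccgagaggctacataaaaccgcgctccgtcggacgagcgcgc
Dusp2: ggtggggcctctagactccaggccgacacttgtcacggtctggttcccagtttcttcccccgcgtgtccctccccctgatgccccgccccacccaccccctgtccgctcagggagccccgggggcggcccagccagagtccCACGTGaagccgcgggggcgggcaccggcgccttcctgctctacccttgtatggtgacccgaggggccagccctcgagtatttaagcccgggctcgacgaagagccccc
Dusp5: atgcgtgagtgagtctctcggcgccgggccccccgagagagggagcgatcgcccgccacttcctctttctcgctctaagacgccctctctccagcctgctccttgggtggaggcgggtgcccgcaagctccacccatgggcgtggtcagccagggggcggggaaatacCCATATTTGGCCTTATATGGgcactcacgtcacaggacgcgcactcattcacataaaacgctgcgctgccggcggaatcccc
The other 6 windows (*Dusp6*, *Dusp10*, *Spry1*, *Spry2*, *Spred1* and *Spred2*) held none of the 5 motifs. Of 32851 windows of the same length, 1.55% held a CRE, 1.47% a CArG box, 6.02% an E-box, 6.75% AP-1 and 12.03% ETS, so that CRE and CArG boxes are the rarer matches. A match describes these letters and is not a measured binding site.

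All values are in the deposited unit, reads per 20 M, rounded up to whole numbers. The libraries held between 1.92 and 33.3 M reads on genes, which are estimates from what 1 read is worth in each, and those of CD70Tg Tregs were the shallowest. In the shallowest of them *Dusp5* rested on 307 reads, *Dusp4* on 163, *Spry1* on 75, *Dusp10* on 33, *Spred1* on 21 and *Spry2* on 1. The sorted cells held the markers of their label, with the summed level of *Foxp3*, *Il2ra*, *Ikzf2* and *Ctla4* between 2695 and 3399 in Tconvs and between 54604 and 63193 in Tregs. *Foxp3* RNA was not absent from Tconvs, at 1039 to 1497 against 19769 to 21367 in Tregs. Its source, and any part in the Tconv values of other genes, was not tested. The 12816 genes that reached 60 in 2 or more libraries were tested with limma on log2(value + 5), and this scale understates the change of low genes. Calls needed both an adjusted p-value under 0.05 and a log2 fold change above 1 or below -1. Of the 10 regulators, 9 were tested, and *Spry2* fell below the minimum. Nothing states that the 2 libraries of a group came from separate mice, so that p-values measure the spread between these libraries, which may be technical. In bulk RNA, fewer cells that use a gene and less RNA per cell cannot be told apart.

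**Figure D1:**
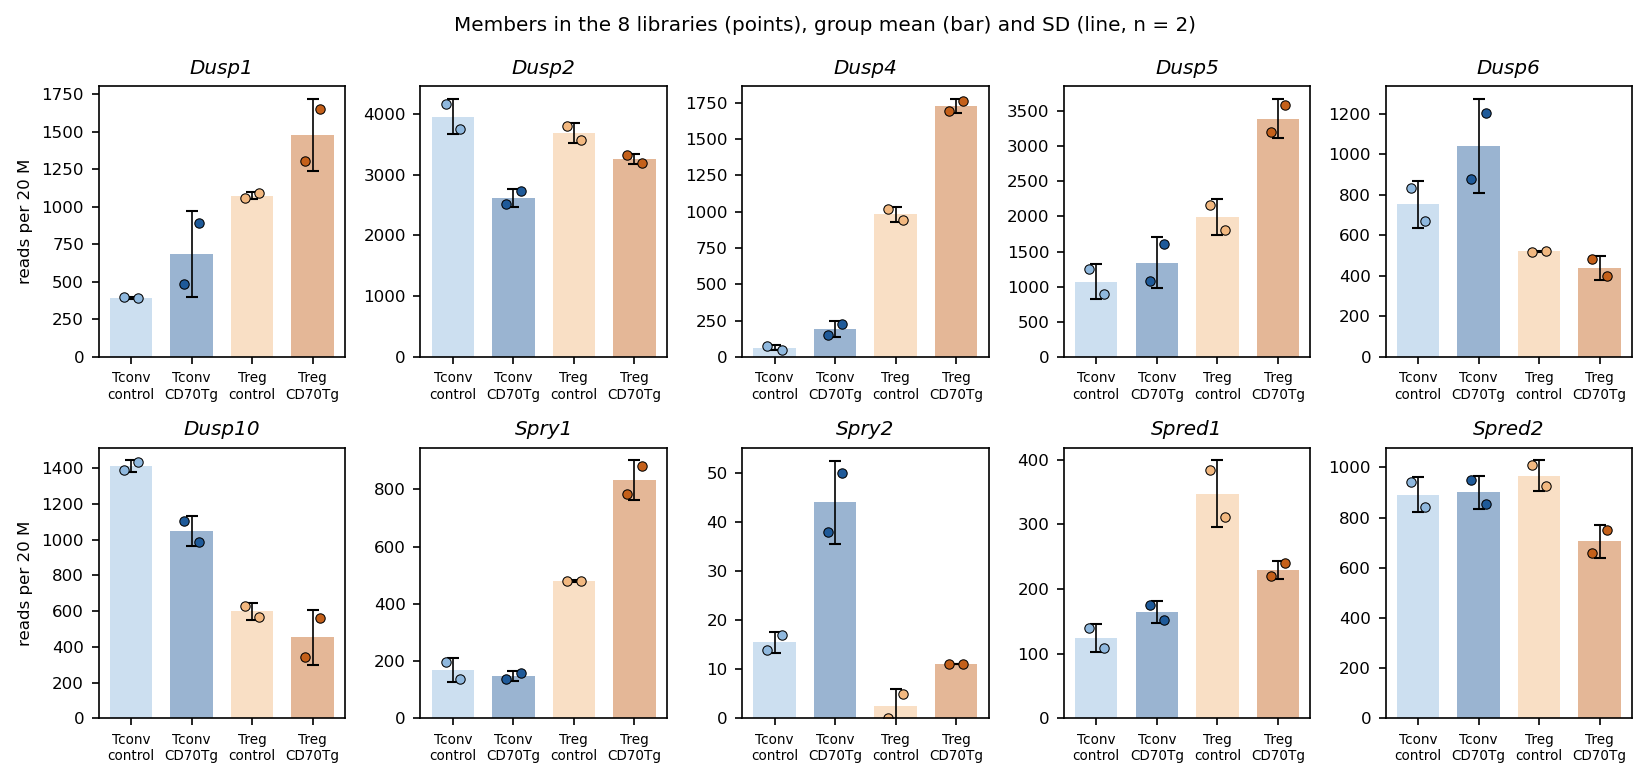
Reads per 20 M of the 10 feedback regulators in each of the 8 libraries (points), with the mean (bar) and SD (line) of each group of 2. The *Dusp4*, *Dusp5*, *Spry1* and *Dusp1* bars are highest in CD70Tg Tregs, *Dusp10* is highest in control Tconvs, and *Spry2* stays at 50 or less in every library.

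Most of the feedback regulators differed between Tregs and Tconvs of control mice. Of the 9 tested, 4 were called higher in Tregs (*Dusp1*, *Dusp4*, *Spry1* and *Spred1*), against 14.7% of all genes tested, and *Dusp10* was called lower, against 4.43%. By the adjusted p-value alone, 5 were higher (27.5% of all genes) and 2 were lower (18.4%), the additional genes being *Dusp5* and *Dusp6*. For 7 of the 9 the libraries of the subsets were apart, against 76.2% of all genes. The phosphatases went both ways.

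*Dusp4*, a nuclear phosphatase of ERK and JNK (chr8:34807297-34819894, plus strand, mm10), had 75 and 49 in control Tconvs and 1019 and 942 in control Tregs. Both Treg libraries lay far above both Tconv libraries, and the log2 fold change of 3.91 (SE 0.232, adjusted p = 1.86e-09), or 15.0-fold, was the largest of the 9. *Dusp1*, which prefers p38 and JNK (chr17:26505590-26562128, minus strand), had 398 and 390 in Tconvs and 1058 and 1091 in Tregs, a log2 fold change of 1.44 (SE 0.216, adjusted p = 5.69e-05). Of 8 tested immediate-early and handling genes, 2 were called higher in control Tregs as well, *Jun* (1.74) and *Fos* (1.63), against 14.7% of all genes. The median log2 fold change of the 8 was 0.85 against 0.07 for all genes. By the adjusted p-value alone 5 were higher (27.5% of all genes) and 2 lower (18.4%), the lower ones being *Btg2* (-0.65) and *Ier2* (-0.63). The part of these 8 genes in the result for *Dusp1* was not tested. *Dusp5*, a nuclear phosphatase specific for ERK (chr19:53529109-53542431, plus strand), had 1249 and 896 in Tconvs against 2169 and 1809 in Tregs. It was 0.90 higher on the log2 scale (SE 0.181, adjusted p = 0.000756), which is below the fold threshold, but was past it without the first control Tconv library (1.14) or the second control Treg library (1.03). *Dusp2* (chr2:127336159-127338376, plus strand), an inducible phosphatase of activated lymphocytes, overlapped between the subsets, with 4159 and 3748 in Tconvs and 3805 and 3569 in Tregs. Its log2 fold change was -0.10 (95% interval from -0.34 to 0.14).

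Among the phosphatases, *Dusp6* and *Dusp10* were on the side of Tconvs. *Dusp10* (chr1:184013302-184075636, plus strand) had 1388 and 1434 in control Tconvs and 631 and 565 in control Tregs, a log2 fold change of -1.23 (SE 0.190, adjusted p = 7.01e-05). *Dusp6* (chr10:99263231-99267489, plus strand) had 835 and 672 in Tconvs and 520 and 522 in Tregs. The groups did not overlap, but the log2 fold change of -0.52 (SE 0.185, adjusted p = 0.0304) was below the fold threshold, and without the first control Tconv library or either control Treg library it missed the adjusted p-value too (up to 0.231 over all alternatives tried).

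Of the Sprouty and Spred genes, *Spry1* and *Spred1* were called higher in control Tregs. *Spry1* (chr3:37639947-37644598, plus strand) had 197 and 139 in control Tconvs and 481 and 478 in control Tregs, and was 2.84-fold higher in Tregs (log2 fold change 1.51, SE 0.220, adjusted p = 4.23e-05). *Spred1* (chr2:117121374-117182279, plus strand) had 140 and 109 in Tconvs and 384 and 311 in Tregs, and was 2.73-fold higher (log2 fold change 1.45, SE 0.250, adjusted p = 0.000202). By contrast, *Spred2* (chr11:19924375-20024026, plus strand) had 941 and 842 in Tconvs and 1010 and 924 in Tregs, groups that overlapped (log2 fold change 0.12, 95% interval from -0.19 to 0.43). *Spry2* (chr14:105891947-105896819, minus strand) was at 14 and 17 in Tconvs and at 0 and 5 in Tregs. The Treg values are under what 3 reads give in those libraries, 14.5 and 13.1, so that *Spry2* was not detectable at this depth in control Tregs and no fold is given. Parts of the exons of 3 regulators are shared with a gene on the opposite strand, 24.4% of those of *Spry1* with *Gm42922*, 22.1% of those of *Dusp5* with a clone-named gene that was left out, and 0.3% of those of *Dusp1* with *Ergic1*. Strand is not stated for the counting, so that reads of the pairs cannot be told apart. *Gm42922* itself had 19 and 9 in control and 15 and 15 in CD70Tg Tconvs, 59 and 14 in control and 84 and 109 in CD70Tg Tregs, and so was highest where *Spry1* was, at lower values.

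**Figure D2:**
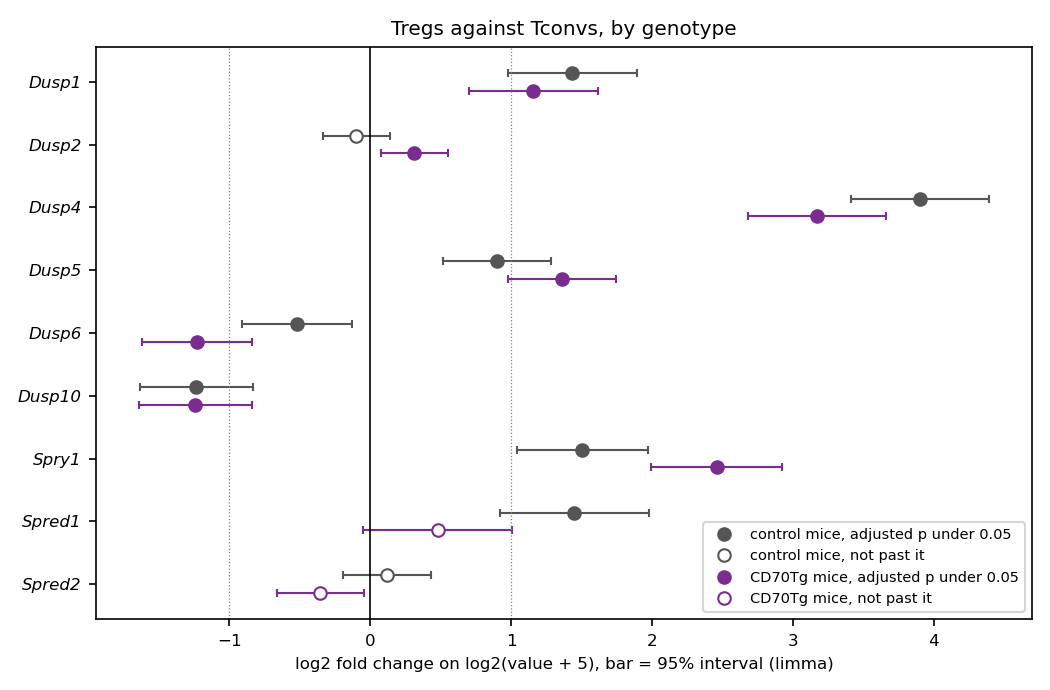
Log2 fold change of Tregs against Tconvs on log2(value + 5), with its 95% interval (limma), for the 9 tested regulators in control and in CD70Tg mice, where filled points passed an adjusted p-value under 0.05 and dotted lines mark log2 fold changes of -1 and 1. *Dusp4* stands farthest to the right in both genotypes (3.91 and 3.17), and *Dusp6* and *Dusp10* lie left of 0 in both.

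In Tconvs of CD70Tg mice, *Dusp4* was called higher than in control Tconvs, the single call among the 9 tested regulators. Of all genes tested, 4.07% were called higher and 0.577% lower in this comparison. By the adjusted p-value alone, *Dusp1* and *Dusp4* were higher (6.82% of all genes) and *Dusp2* was lower (1.99%). An unadjusted p-value under 0.05 was reached by 5 of the 9 (19.1% of all genes), and 6 of the 9 had their libraries apart, against 45.1% of all genes.

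*Dusp4* had 75 and 49 in control and 153 and 228 in CD70Tg Tconvs. Both CD70Tg libraries lay above both controls, by 2.92-fold (log2 fold change 1.55, SE 0.232, adjusted p = 0.000272), and the CD70Tg values still lay below those of either Treg group. This call held under each of the 16 alternatives tried, with a log2 fold change from 1.26 to 1.83. *Dusp2* went the other way, with 4159 and 3748 in control and 2513 and 2721 in CD70Tg Tconvs, a loss of 33.7% (log2 fold change -0.59, SE 0.113, adjusted p = 0.00215). It too kept its adjusted p-value under 0.05 in all 16 alternatives (up to 0.0317).

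*Dusp1* had 398 and 390 in control Tconvs and 482 and 890 in CD70Tg Tconvs, a log2 fold change of 0.73 (SE 0.216, adjusted p = 0.0453). This value was set by 1 library: without the second CD70Tg library the log2 fold change was 0.29 (adjusted p = 0.482), and without the first it was 1.17. Its adjusted p-value missed 0.05 in 10 of the 16 alternatives. The summed level of 11 immediate-early and handling genes, among them *Fos*, *Jun* and *Junb*, was also highest in the second CD70Tg library, at 26171 and 22227 in control Tconvs and 22507 and 34222 in CD70Tg Tconvs, while that of the first lay within the controls. *Jun* alone had 245 and 450 in control and 675 and 2475 in CD70Tg Tconvs. The part of these genes in the result for *Dusp1* was not tested.

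The other regulators did not pass in Tconvs with the values as deposited and all libraries kept. *Dusp6* had 879 and 1206 in CD70Tg Tconvs, both above the controls (835 and 672), with a log2 fold change of 0.46 (SE 0.185, adjusted p = 0.168). *Dusp10* had 1107 and 989, both below the controls (1388 and 1434), with a log2 fold change of -0.43 (SE 0.190, adjusted p = 0.219). For *Dusp5* the CD70Tg values of 1084 and 1604 overlapped the controls (1249 and 896), and the log2 fold change was 0.32 (SE 0.181, adjusted p = 0.387). Without the first CD70Tg library, *Dusp5* (0.60, adjusted p = 0.0443) and *Dusp6* (0.68, adjusted p = 0.0370) passed, so that for both the 2 CD70Tg Tconv libraries do not give the same answer. With limma-voom on the numbers of reads, *Dusp6* (0.50, adjusted p = 0.0416) and *Dusp10* (-0.45, adjusted p = 0.0220) passed the adjusted p-value as well.

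*Spred1* had 176 and 152 in CD70Tg Tconvs against 140 and 109 in controls (log2 fold change 0.39, 95% interval from -0.14 to 0.92). *Spry1*, at 136 and 159 against 197 and 139, and *Spred2*, at 948 and 854 against 941 and 842, overlapped between the groups, with log2 fold changes of -0.17 (95% interval from -0.63 to 0.30) and 0.02 (from -0.30 to 0.33). *Spry2* had 14 and 17 in control and 38 and 50 in CD70Tg Tconvs, above the value of 3 reads in each of these libraries (1.80 to 8.63). Tested with no minimum value, its log2 fold change was 1.25 (SE 0.470, adjusted p = 0.370).

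In Tregs of CD70Tg mice no regulator was called, against 2.53% of all genes called higher and 1.08% lower. By the adjusted p-value alone 3 of the 9 were higher, *Dusp4*, *Dusp5* and *Spry1*, against 3.94% of all genes, and none was lower, against 3.46%. An unadjusted p-value under 0.05 was reached by 6 of the 9 (21.6% of all genes). The CD70Tg and control libraries were apart for all 9, above the controls for 4 and below for 5, against 53.7% of all genes. The control Treg libraries are those of the comparison between the subsets above.

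*Dusp4* had 1019 and 942 in control and 1693 and 1762 in CD70Tg Tregs, a rise of 1.76-fold (log2 fold change 0.81, SE 0.232, adjusted p = 0.0420). *Dusp5* had 2169 and 1809 in control and 3198 and 3594 in CD70Tg Tregs, 1.71-fold higher (log2 fold change 0.77, SE 0.181, adjusted p = 0.0149). *Spry1* had 481 and 478 in control and 784 and 881 in CD70Tg Tregs, 1.73-fold higher (log2 fold change 0.79, SE 0.220, adjusted p = 0.0386). For each of the 3, both CD70Tg libraries lay above both controls, while the adjusted p-value depended on the libraries and on the settings. It missed 0.05 for *Dusp4* and *Spry1* without any 1 of the 4 (up to 0.221 and 0.230), and for *Dusp5* without the second control, the first CD70Tg or the second CD70Tg library (up to 0.137), with log2 fold changes from 0.64 to 0.90 throughout. With no minimum value all 3 missed it (0.145 for *Dusp4*, 0.138 for *Dusp5* and 0.0946 for *Spry1*), as did *Dusp4* with a pseudocount of 1 (0.0530) and *Dusp5* and *Spry1* with limma-voom (0.0817 each).

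*Spred1* and *Spred2* were on the other side in Tregs. *Spred1* had 384 and 311 in control and 220 and 240 in CD70Tg Tregs (log2 fold change -0.58, SE 0.250, adjusted p = 0.187), and *Spred2* had 1010 and 924 against 659 and 751 (log2 fold change -0.45, SE 0.147, adjusted p = 0.0739). Neither passed with all 8 libraries in the fit, though both CD70Tg libraries lay below both controls. With the 4 libraries of the comparison alone, *Spred2* passed the adjusted p-value. *Dusp10* had 631 and 565 in control and 345 and 561 in CD70Tg Tregs, and the log2 fold change of -0.44 (adjusted p = 0.191) was -0.78 without the second CD70Tg library (adjusted p = 0.0256) and -0.09 without the first. *Dusp1* had 1058 and 1091 against 1307 and 1648 (log2 fold change 0.45, adjusted p = 0.242), with the immediate-early and handling genes at 25693 and 25916 against 28404 and 34742. With the 4 libraries alone, the adjusted p-value of *Dusp1* in limma was 0.0252.

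The fold changes of *Dusp2* and *Dusp6* in Tregs were small. *Dusp2* had 3313 and 3192 in CD70Tg Tregs (log2 fold change -0.18, 95% interval from -0.42 to 0.06), and *Dusp6* had 481 and 397 (log2 fold change -0.25, from -0.64 to 0.14). *Spry2* was at 11 in both CD70Tg Treg libraries, under the value of 3 reads in each (31.2 and 16.3). It was not detectable at this depth in Tregs of either genotype.

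**Figure D3:**
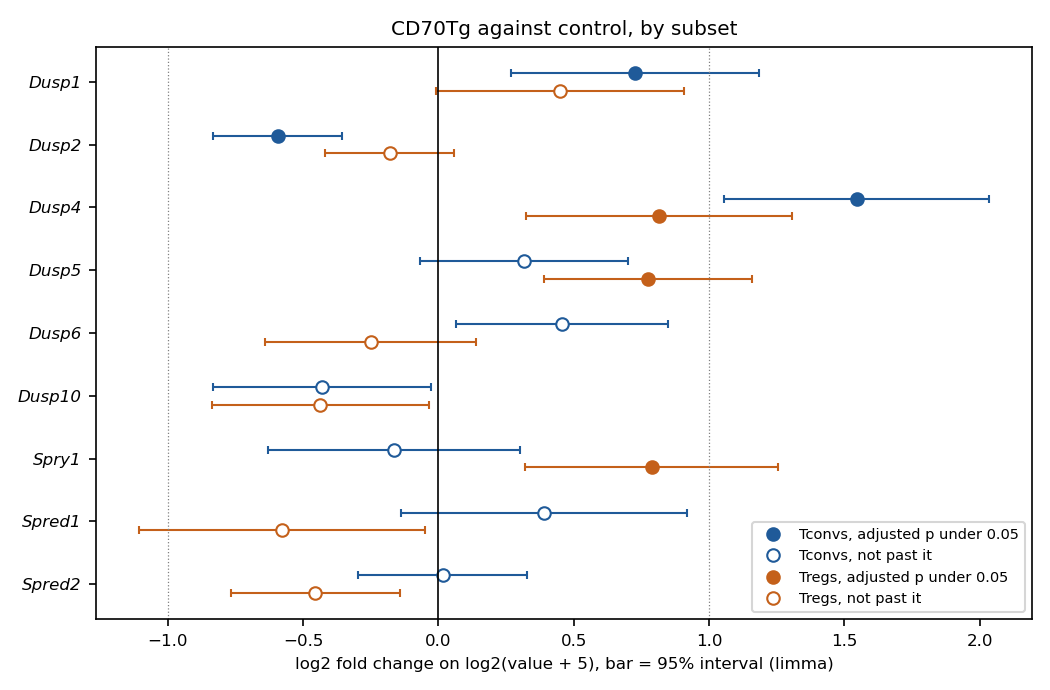
Log2 fold change of CD70Tg against control on log2(value + 5), with its 95% interval (limma), for the 9 tested regulators in Tconvs and Tregs, where filled points passed an adjusted p-value under 0.05. *Dusp4* in Tconvs (1.55) is the only point past the dotted line at 1, and *Dusp6*, *Spry1*, *Spred1* and *Spred2* have their points on opposite sides of 0 in the 2 subsets (*Spred2* with 0.02 in Tconvs).

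Whether CD70 acted differently on the 2 subsets was tested as the difference between both fold changes, Tregs minus Tconvs. No regulator passed an adjusted p-value under 0.05 in limma, against 0.195% of all genes higher and 0.827% lower, and 6 of the 9 had an unadjusted p-value under 0.05 (10.7% of all genes). *Spry1* had the largest positive difference (0.95, SE 0.311, adjusted p = 0.213), with 0.79 in Tregs and -0.17 in Tconvs. *Spred1* had the largest negative one (-0.97, SE 0.353, adjusted p = 0.292), followed by *Dusp4* (-0.73, adjusted p = 0.435) and *Dusp6* (-0.71, adjusted p = 0.301). *Dusp4* was higher in both subsets, by 1.55 and 0.81, and that these differ was not shown. The 95% intervals are wide: for *Dusp4* the difference lay between -1.43 and -0.04, and for *Dusp10*, with nearly the same fold change in both subsets, between -0.58 and 0.56.

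In CD70Tg mice, the subsets differed in 6 of the 9 regulators. Of these, 4 were called higher in Tregs (*Dusp1*, *Dusp4*, *Dusp5* and *Spry1*), against 12.3% of all genes tested, and 2 lower (*Dusp6* and *Dusp10*), against 4.94%. By the adjusted p-value alone 5 were higher (22.6% of all genes) and 2 lower (20.1%), and the libraries were apart for all 9 (69.2% of all genes). *Dusp4*, at 153 and 228 in CD70Tg Tconvs and 1693 and 1762 in CD70Tg Tregs, was 9.03-fold higher (log2 fold change 3.17, SE 0.232, adjusted p = 3.60e-08). *Spry1*, at 136 and 159 against 784 and 881, was 5.50-fold higher (2.46, SE 0.220, adjusted p = 3.00e-07). *Dusp5*, at 1084 and 1604 against 3198 and 3594, was 2.57-fold higher (1.36, SE 0.181, adjusted p = 2.25e-05).

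*Dusp6* had 879 and 1206 in CD70Tg Tconvs and 481 and 397 in CD70Tg Tregs, and was lower in Tregs (log2 fold change -1.23, SE 0.185, adjusted p = 7.47e-05), as was *Dusp10*, with 1107 and 989 against 345 and 561 (-1.24, SE 0.190, adjusted p = 8.61e-05). Of the 8 tested immediate-early and handling genes, 4 were called higher in CD70Tg Tregs, against 12.3% of all genes. By the adjusted p-value alone *Btg2* (-0.86) and *Ier2* (-0.57) were lower. *Dusp1*, at 482 and 890 against 1307 and 1648, was the remaining one of the 6 called regulators, and was higher (1.16, SE 0.216, adjusted p = 0.000499). These 6 kept an adjusted p-value under 0.05 in all 16 alternatives, although the number called was 5 without any 1 of the 4 CD70Tg libraries. *Dusp1* was then at 0.72 (without the first Tconv library) or 0.99 (without the second Treg library), *Dusp6* just short of -1 (without the second Tconv library) and *Dusp10* at -0.89 (without the first Treg library), each short of the fold threshold. *Spred1*, called in control mice, had 176 and 152 against 220 and 240 and was not called here (log2 fold change 0.48, adjusted p = 0.135). *Dusp2* differed by 0.31 (adjusted p = 0.0335, up to 0.167 and over 0.05 in 8 of 16 alternatives) and *Spred2* by -0.35 (adjusted p = 0.0639).

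To compare the genes with each other, the mean values were divided by the length of their exons. *Dusp2* had the highest level per kb in all 4 groups, from 1307 reads per 20 M per kb in CD70Tg Tconvs to 1974 in control Tconvs, and *Spry2* the lowest, from 1.20 in control Tregs to 21.1 in CD70Tg Tconvs. Without division by length *Dusp5* was ahead of *Dusp2* in CD70Tg Tregs, with means of 3396 and 3252 (reads per 20 M). Their libraries overlapped there, with 3198 and 3594 for *Dusp5* and 3313 and 3192 for *Dusp2*. The level per kb of *Dusp4* placed it 8th of 10 in control Tconvs (22.6), 7th in CD70Tg Tconvs (69.5) and 3rd in both control (357.8) and CD70Tg Tregs (630.5). *Dusp5* was 2nd in both Treg groups (804.3 and 1373) and in CD70Tg Tconvs (543.5), and 3rd in control Tconvs, where its libraries overlapped those of *Dusp10*. *Dusp10* itself went from 2nd in control Tconvs (463.8) to 7th in CD70Tg Tregs (148.9), where it overlapped both *Spred2* and *Dusp6*. Of the 9 pairs of neighbours in each order, 2 overlapped in control Tconvs, 3 in CD70Tg Tconvs, 1 in control Tregs and 2 in CD70Tg Tregs.

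**Figure D4:**
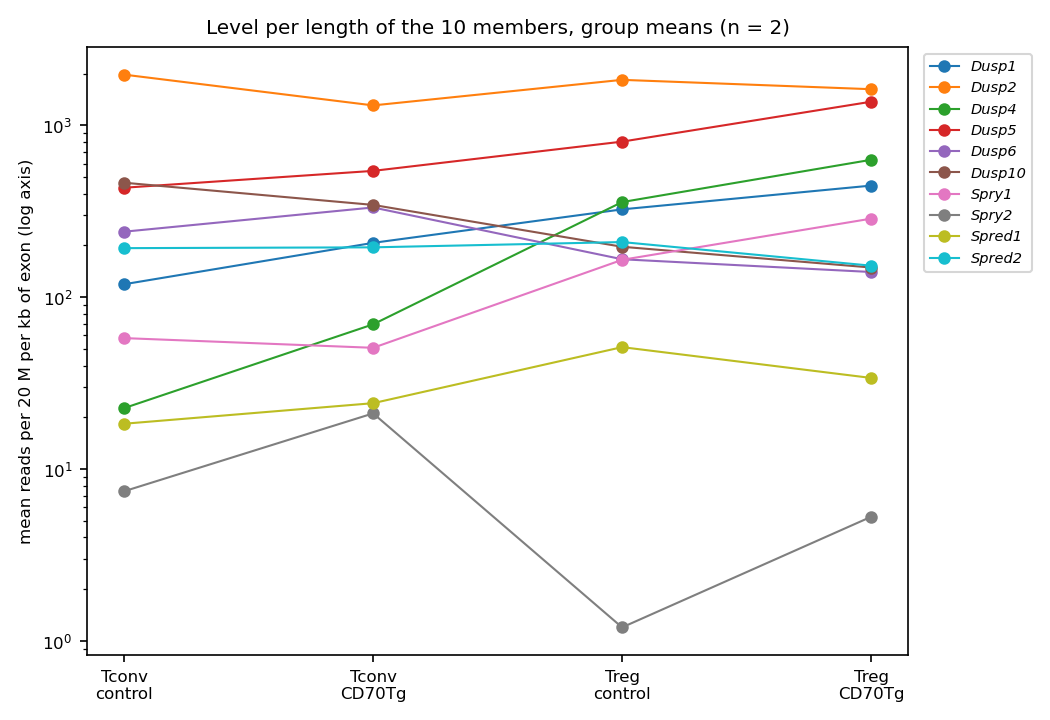
Mean reads per 20 M per kb of exon (log axis, n = 2) of the 10 regulators in each group, with lines that only join the points of a gene. *Dusp2* is on top in every group, *Dusp4* goes from 22.6 in control Tconvs to 630.5 in CD70Tg Tregs, and *Dusp10* from 463.8 to 148.9 over the same groups.

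For each regulator that was tested, the genes whose pattern over the 8 libraries was most like its own were sought among 11049 genes by Pearson's r on log2(value + 5). These r describe 8 libraries that fall into 2 subsets, which they share, and differ in depth. The pattern of *Dusp4* was closest to *Tnfrsf1b* (r = 0.997), which encodes a tumour necrosis factor receptor, and *Slc2a3* (0.997), a glucose transporter. *Tnfrsf1b* had 3155 and 2145 in control Tconvs, 5359 and 6367 in CD70Tg Tconvs, 17474 and 18052 in control Tregs and 23384 and 23494 in CD70Tg Tregs. Like *Dusp4*, it was lowest in control Tconvs and highest in CD70Tg Tregs, with no overlap between groups.

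*Dusp5* was closest to *Mmp9* (0.997), a matrix metalloproteinase, and *Sv2c* (0.985), and *Dusp1* to *Bid* (0.995), a proapoptotic gene of the Bcl-2 family, and *Clstn1* (0.992). *Dusp2* was closest to *Srf* (0.969) and *Fam212b* (0.965). *Srf*, which encodes serum response factor, had 3097 and 2899 in control Tconvs and 2230 and 2436 in CD70Tg Tconvs, 2975 and 2838 in control Tregs and 2895 and 2714 in CD70Tg Tregs. For both *Dusp2* and *Srf* the 2 lowest libraries were those of CD70Tg Tconvs. *Dusp6* was closest to *Ttc7* (0.989) and *Galnt2* (0.989), *Dusp10* to *Hspb11* (0.993) and *Sp100* (0.986), *Spry1* to *Lca5* (0.995) and *Pard6g* (0.991), *Spred1* to *Wdr82* (0.989) and *Nek7* (0.982), and *Spred2* to *Zfp599* (0.974) and *Ctdspl2* (0.971).

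Of the 4 other MAP kinase phosphatases, 2 were tested and neither was called for CD70Tg against control. Among all genes 4.07% were called higher and 0.577% lower in Tconvs, and 2.53% and 1.08% in Tregs, so that none of 2 says little. *Dusp7*, a cytoplasmic phosphatase of ERK, had 2067 and 1727 in control and 1285 and 1370 in CD70Tg Tconvs (log2 fold change -0.51, adjusted p = 0.0205), a loss in the same libraries as that of *Dusp2*. *Dusp16*, a phosphatase of JNK, had 82 and 61 in control Tconvs and 156 and 167 in control Tregs. It was called higher in Tregs (1.14, adjusted p = 0.00843), as were 14.7% of all genes. Of 9 atypical dual-specificity phosphatases 7 were tested. *Dusp14* was called higher in CD70Tg Tconvs, with 40 and 15 in control and 61 and 181 in CD70Tg (1.89, adjusted p = 0.0193), 1 of 7 against 4.07% of all genes. In this group *Dusp28* was called lower in control Tregs than in control Tconvs (-1.08, adjusted p = 0.00569), 1 of 7 against 4.43% of all genes. The 3 remaining Sprouty and Spred genes had at most 25 in any library, and none was tested.

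All 16 genes of the Ras-ERK cascade were tested, and none was called for CD70Tg against control in Tconvs or Tregs, with median log2 fold changes of 0.13 and -0.01 against 0.01 and -0.05 for all genes. The shares of all genes called (4.07% higher and 0.577% lower in Tconvs, 2.53% and 1.08% in Tregs) would also leave few or none among 16. By the adjusted p-value alone, the scaffold gene *Ksr1* was higher in Tconvs (0.80, adjusted p = 0.00417). In the JNK and p38 cascades 11 of 13 genes were tested, and again none was called in either subset. *Map3k5*, which encodes the kinase ASK1, was higher (0.68, adjusted p = 0.00702) and *Mapk11*, which encodes p38 beta, lower (-0.55, adjusted p = 0.0425) in CD70Tg Tconvs by the adjusted p-value alone. Between the subsets in control mice, *Braf* (1.36) and *Map3k5* (1.09) were called higher in Tregs, and *Rasgrp2* (-1.18), an activator of Rap1, lower. The higher calls, 1 of the 16 and 1 of the 11 genes tested, are not more frequent than those among all genes (14.7%). The lower call was 1 of the 16, against 4.43% of all genes, too few to set against that share.

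Of 8 Ras GTPase-activating protein genes, which switch Ras off, 7 were tested. In control mice *Dab2ip* (3.16), *Rasa1* (1.43) and *Nf1* (1.15), the gene of neurofibromin, were called higher in Tregs than in Tconvs, as *Spred1* was, 3 of 7 against 14.7% of all genes, and the median log2 fold change of the 7 was 0.89 against 0.07 for all genes. On the adjusted p-value alone, *Rasa2* was higher (0.89), and *Rasa3* (-0.70) and *Rasal3* (-0.35) were lower. *Nf1* had 150 and 172 in control Tconvs and 394 and 333 in control Tregs. *Rasal1* was called lower in CD70Tg Tregs, with 636 and 517 in control and 251 and 289 in CD70Tg (-1.08, adjusted p = 0.0127), 1 of 7 against 1.08% of all genes. There *Rasa2* was lower by the adjusted p-value alone (-0.69, adjusted p = 0.00830). *Rasa1*, in contrast, was higher in CD70Tg Tconvs by the adjusted p-value alone (0.52, adjusted p = 0.0166), with 765 and 852 in control and 1101 and 1216 in CD70Tg.

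Genes that ERK is known to switch on went both ways. Of 11, 7 were tested. *Ier3* was called higher in CD70Tg Tconvs (2.82, adjusted p = 0.00161), with 24 and 13 in control and 98 and 249 in CD70Tg, 1 of 7 against 4.07% of all genes. *Myc*, in contrast, was lower by the adjusted p-value alone in both CD70Tg Tconvs (-0.51, adjusted p = 0.00842) and CD70Tg Tregs (-0.45, adjusted p = 0.0248). *Etv5* had 466 and 451 in control and 241 and 261 in CD70Tg Tregs (-0.86, adjusted p = 0.0301). In control mice *Etv5* (1.74), *Fos* (1.63) and *Phlda1* (1.41) were called higher in Tregs than in Tconvs, 3 of 7 against 14.7% of all genes. Of the 11 immediate-early and handling genes, which the sorting of cells can also induce and of which *Fos* is counted in both lists, 8 were tested. *Jun* was called higher in CD70Tg Tconvs (1.95, adjusted p = 0.00339) and in CD70Tg Tregs (1.33, adjusted p = 0.0482), where *Jun* had 1029 and 1226 in control and 2487 and 3230 in CD70Tg. This is 1 of 8 in each subset, against 4.07% of all genes called higher in Tconvs and 2.53% in Tregs. *Junb* was higher by the adjusted p-value alone in CD70Tg Tconvs (0.97, adjusted p = 0.0194), with 4674 and 4269 in control and 5720 and 13468 in CD70Tg, so that the second CD70Tg library stood far above the first. *Btg2* was lower in CD70Tg Tregs (-0.57, adjusted p = 0.00978), with 4901 and 4764 in control and 3292 and 3198 in CD70Tg.

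The methods deplete B cells, CD8+ cells, NK cells, granulocytes, macrophages and dendritic cells with antibodies and then sort on CD3 and CD4. Markers of other cells still differed with genotype and subset. The summed level of *Cd8a* and *Cd8b1* was 720 and 681 in control and 1563 and 1590 in CD70Tg Tconvs, and 317 and 417 in control and 660 and 631 in CD70Tg Tregs. *Cd8a* alone had 17 and 28 in control and 508 and 608 in CD70Tg Tconvs (log2 fold change 4.38, adjusted p = 9.81e-07). Its Treg libraries had 25 and 71 in control and 262 and 223 in CD70Tg (2.37, adjusted p = 0.00121). *Cd8b1* moved less, from 703 and 653 in control to 1055 and 982 in CD70Tg Tconvs (0.58, adjusted p = 0.0377). For *Cd8b1* the Treg libraries had 292 and 346 in control and 398 and 408 in CD70Tg (0.34, adjusted p = 0.26), which did not pass. The summed level of 3 NK cell genes was 415 and 444 in control and 81 and 87 in CD70Tg Tconvs, and 64 and 36 in control and 0 and 11 in CD70Tg Tregs. Nearly all of it was *Klrb1c*, at 403 and 423 in control and 75 and 68 in CD70Tg Tconvs. *Ncr1* had at most 2 and *Klre1* at most 21 in any library. The summed level of 5 macrophage and dendritic cell genes was 988 to 1515 in Tconvs and 2526 to 2761 in Tregs, with members that went opposite ways. *Itgam* had 178 and 166 in control and 93 and 80 in CD70Tg Tconvs (log2 fold change -0.95, adjusted p = 0.0269), but 146 and 198 in control and 377 and 381 in CD70Tg Tregs (1.13, adjusted p = 0.0129). *Itgax* was called higher in CD70Tg Tconvs (1.76, adjusted p = 0.0152), and *Csf1r* was lower in CD70Tg Tregs by the adjusted p-value alone (-0.67, adjusted p = 0.0294). The source of these markers and its part in the results were not tested.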

How the data were processed

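RNA from sorted Tconvs and Tregs of control and CD70Tg mice was sequenced in 8 libraries. The authors trimmed reads with Trimmomatic 0.36, mapped them to mm10 with STAR 2.5.3 and counted them with HTSeq 0.9.1, per the labels. The score values that the authors deposited are these counts scaled to a total of 20 M and then rounded up, so that no count test fits them. The columns name the controls KO and the sample labels WT, and both were taken as the CD27+/- controls. The first and second library of a group follow the order of the table.

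Low values are multiples of what 1 read is worth in their library, which gave the numbers of reads. Those of 33.3 and 19.5 M are less certain. The value of 3 reads was taken as the floor, which covers counting error only. The 4131 clone-named rows were left out, since their low values follow the step of another library. Of 97 names on several rows, the row with the largest total kept the name. Exon lengths and positions are those of GENCODE M21 (GRCm38), where 99.6% of the identifiers were found.

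Values were tested with limma 3.58.1 in R 4.3.3 (trended prior variance, 12.3 prior degrees of freedom) on log2(value + 5), with 4 group means over all 8 libraries and Benjamini-Hochberg adjustment over 12816 genes within each comparison. The comparisons share control libraries. The procedure was tested on simulated data. One list of markers is not reported here. The genes and lists were chosen with earlier results of these data known. All 10 regulators are named, the called genes of each list (with some that passed by the adjusted p-value alone, named after their values were seen), and the 2 genes most like each regulator, leaving out predicted genes. Alternatives tried were another pseudocount (1 or 20), another minimum (none, or a mean of 60), TMM or median-of-ratios factors, limma-voom on the numbers of reads, the 4 libraries of a comparison alone, no fold threshold, no division by length, and leaving out each library in turn. Relabelling 2 against 2 libraries cannot give a small p-value and was not used.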

Additional observations from a re-analysis of the deposited data

Results flagged for a closer look

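*Dusp6* and *Spred1* stood out because CD70Tg and control libraries were apart in opposite directions in the 2 subsets. *Dusp6* had 879 and 1206 in CD70Tg against 835 and 672 in control Tconvs, and 481 and 397 against 520 and 522 in Tregs, a difference of fold changes of -0.71 (Tregs minus Tconvs, log2; unadjusted p = 0.0154 and adjusted p = 0.301 in limma). *Spred1* had 176 and 152 against 140 and 109 in Tconvs, and 220 and 240 against 384 and 311 in Tregs, a difference of -0.97 (unadjusted p = 0.0142, adjusted p = 0.292). Neither passed the adjusted test of the difference. Over the alternatives tried, the difference lay between -0.93 and -0.48 for *Dusp6* and between -1.14 and -0.80 for *Spred1*.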

How the results depend on the processing

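Of 711 values of the regulators under an alternative, 648 kept their direction and their side of an adjusted p-value of 0.05, 40 lost it, 8 gained it and 15 changed sign. The number of regulators called in Tconvs was 1, with 3 when the fold threshold was dropped and 1 to 2 when a library was left out. It was 2 without the first CD70Tg Tconv library, where *Dusp1* was called too. In Tregs it was 0, and 3 with no fold threshold. The fold change of *Spry1* in Tconvs (-0.17) was 0.0786 without the first control library, with -0.41 as the other end. For *Spred2* in Tconvs (0.02) it was -0.0322 with TMM factors, -0.0231 with median-of-ratios factors, -0.0251 with voom, and between -0.0643 and 0.0952 with a library left out. The difference between the subsets was 0.0018 for *Dusp10* with a pseudocount of 20, 0.0867 with TMM factors, 0.0734 with median-of-ratios factors, 0.11 with voom, and between -0.35 and 0.34 with a library left out. That of *Dusp1* lay between -0.72 and 0.16, the latter without the second CD70Tg Tconv library. The cause was not tested. No paired analysis was possible because the columns of the table carry no replicate numbers. Depth limits *Spry2* above all, which was at or under the value of 3 reads in all 4 Treg libraries.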
